A study of Mus musculus with 9 samples.

Results

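Transcripts of 10 genes that are used to recognise or sort fibroblasts were followed in cultured cardiac fibroblasts in which Gata4 or Tbx20 had been knocked down. The genes were chosen by symbol as markers: Pdgfra, Pdgfrb, Thy1, Ly6a, Cd34, Tcf21, Meox1, Vim, S100a4 and Pi16. All 10 were found among the 38924 genes of the count table, of which 23218 had at least 1 count. Against scrambled guides neither knockdown changed any of them past the significance threshold, which in the Tbx20 knockdown Tbx20 itself did not pass either. Tcf21, a transcription factor of cardiac fibroblasts and of their epicardial precursors, had its lowest mean in the Gata4 knockdown and its highest in the Tbx20 knockdown. Libraries of the Tbx20 knockdown overlapped with control. The direct comparison of the knockdowns did not pass the threshold for Tcf21 either (adjusted p = 0.0932, edgeR's quasi-likelihood test).

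Cells came from hearts of adult RosaCas9-EGFP mice on a C57BL/6 background, aged 8 to 10 weeks, whose cells in all groups make Cas9 nuclease together with EGFP, a fluorescent protein. After 3 days in culture, cells positive for CD90 and negative for CD45 and CD31 were sorted and replated, and 6 days later, at 80 to 90% confluency, guide RNAs were transfected with a lipid reagent. Control cells received scrambled guides, Gata4 KD cells guides against Gata4 and Tbx20 KD cells guides against Tbx20, and each group had 3 libraries, named a, b and c. Each library is a bulk culture in which edited and unedited cells were not separated. The labels do not say whether libraries of a group came from separate animals or cultures, so the p-values measure only the spread between these samples.

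Fibroblasts have no single defining antigen and are recognised by combinations of markers. CD90, the product of Thy1, is a small glycoprotein anchored to the outer face of the cell membrane. CD45 (Ptprc) marks leukocytes and CD31 (Pecam1) marks endothelium, so the sort removes the most frequent contaminants and keeps mesenchymal cells. PDGF receptors carry growth signals for mesenchymal cells, and Pdgfra with Tcf21 marks resident cardiac fibroblasts. Vimentin and S100A4 are found in most cultured mesenchymal cells, and Cd34, Ly6a (SCA-1) and Pi16 mark progenitor-like cells of the vessel adventitia.

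The knockdowns rest on 4 targeting guides, which are shown because every comparison below is between cells that differ in these sequences. In each targeting site the PAM, the 3 bases that Cas9 requires beside the guide, is in capitals, and the guide itself is in lower case, written 5′ to 3′.
Tbx20_sgRNA2: caaattccatgaactgggcaCGG
Tbx20_sgRNA3: gagctgctcgccagtaaaggGGG
Gata4_sgRNA1: cagagagtgtgtcaattgtgGGG
Gata4_sgRNA3: gcaggactgggctgtcgaagGGG
NTC_sgRNA1: gcgaggtattcggctccgcg
NTC_sgRNA2: gctttcacggaggttcgacg
On GRCm38, the Tbx20 guides lie at chr9:24770708-24770727, on the minus strand in exon 2 of transcript Tbx20-201, and at chr9:24765732-24765751, on the plus strand in exon 4. The Gata4 guides lie at chr14:63204711-63204730, on the minus strand in exon 3 of transcript Gata4-201, and at chr14:63240581-63240600, on the plus strand in exon 2. All 4 sites are in coding sequence. In the spliced transcripts of the 10 markers, no site followed by NGG matched a targeting guide with fewer than 7 mismatches, a number reached in 6 of 40 pairs of guide and marker.

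Library totals ran from 31214828 to 41950397 counts. Gm42418, a transcript that resembles ribosomal RNA, took 2.71% of the counts in Gata4 KD a and 1.11% in control a, and was not the highest gene of any other library. Levels are given as CPM, a count divided by the library's total and scaled to a common size with TMM factors over all 9 libraries, and genes are compared with each other only as CPM per kilobase of exon. Gata4 fell in the Gata4 knockdown, from 162 ± 6.82 CPM in control to 55.4 ± 9.48 CPM (SD, n = 3 each), by 1.55 on the log2 scale (adjusted p = 0.00272, edgeR's quasi-likelihood test). Tbx20 stood at 1002 ± 278 CPM in control and 391 ± 61.8 CPM in the Tbx20 knockdown, with no overlap between libraries, a log2 fold change of -1.35 and an adjusted p of 0.748. In the Gata4 knockdown Tbx20 stood at 698 ± 199 CPM (log2 fold change -0.52 against control, adjusted p = 0.636). Gata4 stood at 189 ± 10.4 CPM in the Tbx20 knockdown (0.23, adjusted p = 0.9997). Transcripts of edited alleles can still be counted, so these levels measure RNA and not the loss of working protein.

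Ordered per kilobase and averaged over 9 libraries, S100a4 was highest at 1012 CPM per kilobase, followed by Vim at 555, Ly6a at 320, Tcf21 at 74.5, Pdgfrb at 59.9, Pdgfra at 49.2 and Thy1 at 29.6 CPM per kilobase. Cd34 at 3.01, Meox1 at 1.88 and Pi16 at 0.0207 CPM per kilobase closed the series. Among 22694 genes these levels put S100a4 at rank 18, Vim at 45, Ly6a at 104, Tcf21 at 607 and Thy1 at 1713, whereas Cd34 ranked 8586 and Pi16 17503. Most neighbours kept their order in all 9 libraries. The exceptions were Tcf21 above Pdgfrb, in 6 of 9 libraries, and Cd34 above Meox1, in 8 of 9. Tcf21 fell below Pdgfrb in all Gata4 KD libraries, where the group means were 50.8 and 69.1 CPM per kilobase. With the length of the longest transcript in place of all exons, Pdgfra moved above Pdgfrb.

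**Figure D1:**
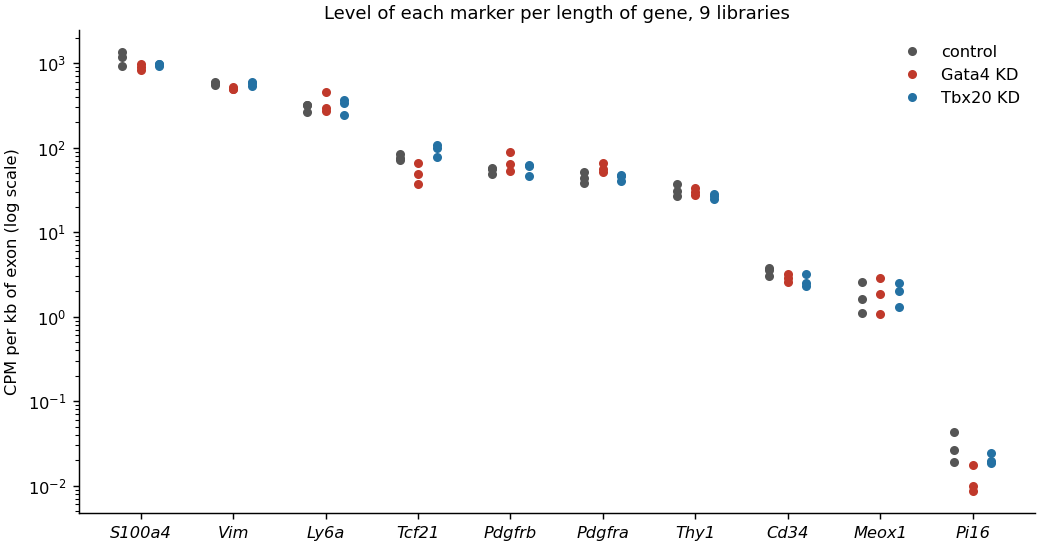
Level of the 10 markers in CPM per kilobase of exon (vertical axis, log scale), ordered by their mean over 9 libraries, with 1 point per library coloured by group. S100a4, Vim and Ly6a stay at 246 CPM per kilobase or more in every library, Tcf21, Pdgfrb, Pdgfra and Thy1 range from 25.0 to 107, and Pi16 reaches at most 0.0427.

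Some of these levels carry a limit of the reference. In GENCODE M21, 44.8% of the 75-base windows of S100a4 also occur in Gm42674, a gene model on the same strand. Gm42674 has no row in the table, so no reads were shared out to it. For Ly6a, 6.33% of the windows occur in its neighbours Ly6c1 and Ly6i, which have rows, so reads there could be divided. Tcf21, Cd34, Meox1, Pdgfra and Pi16 have annotated antisense genes, and the study counted reads by strand. Of these antisense genes, only those of Cd34 and Meox1 have a row. No window of Pdgfra, Pdgfrb, Thy1, Tcf21, Cd34, Vim or Meox1 was shared with another gene.

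Of the 10 markers, 9 passed the filter on low counts in each comparison and Pi16 did not. In the Gata4 knockdown against control edgeR's quasi-likelihood test called 0 of the 9, beside 0.38% of all 14468 genes tested. At an unadjusted p under 0.05 there were 4 of the 9 (Tcf21, Pdgfra, S100a4 and Vim), beside 8.54% of all genes. Groups did not overlap for 2 of the 9, Tcf21 and Vim, both lower, beside 13.8% of all genes. The median log2 fold change of the markers was -0.05 and that of all genes -0.02. In the Tbx20 knockdown against control 0 of 9 were called, beside 0.00687% of 14547 genes. There were 2 at an unadjusted p under 0.05 (Cd34 and Tcf21), beside 2.69% of all genes, and 0 without overlap, beside 6.93%. DESeq2, limma-voom and an exact test also called 0 of the markers in both comparisons. In Tbx20 KD against control the quasi-likelihood test called 1 gene in all, and did not call Tbx20 itself (adjusted p = 0.748). The 0 of 9 there therefore cannot show that the markers were unchanged.

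Set directly against each other, the knockdowns differed in 1.44% of 14477 genes and in 0 of the 9 markers. An unadjusted p under 0.05 was found for 4 of the 9 (Tcf21, Pdgfra, Vim and Thy1), beside 16.7% of all genes. Libraries of the groups did not overlap for Pdgfra, higher in the Gata4 knockdown, and for Tcf21 and Vim, lower there, making 3 of 9 beside 23% of all genes. DESeq2 called these 3 genes, beside 743 of all 14169 genes it tested. The exact test called Tcf21 and Pdgfra, beside 729 of all 14477. The comparisons share libraries and are not independent of each other.

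**Figure D2:**
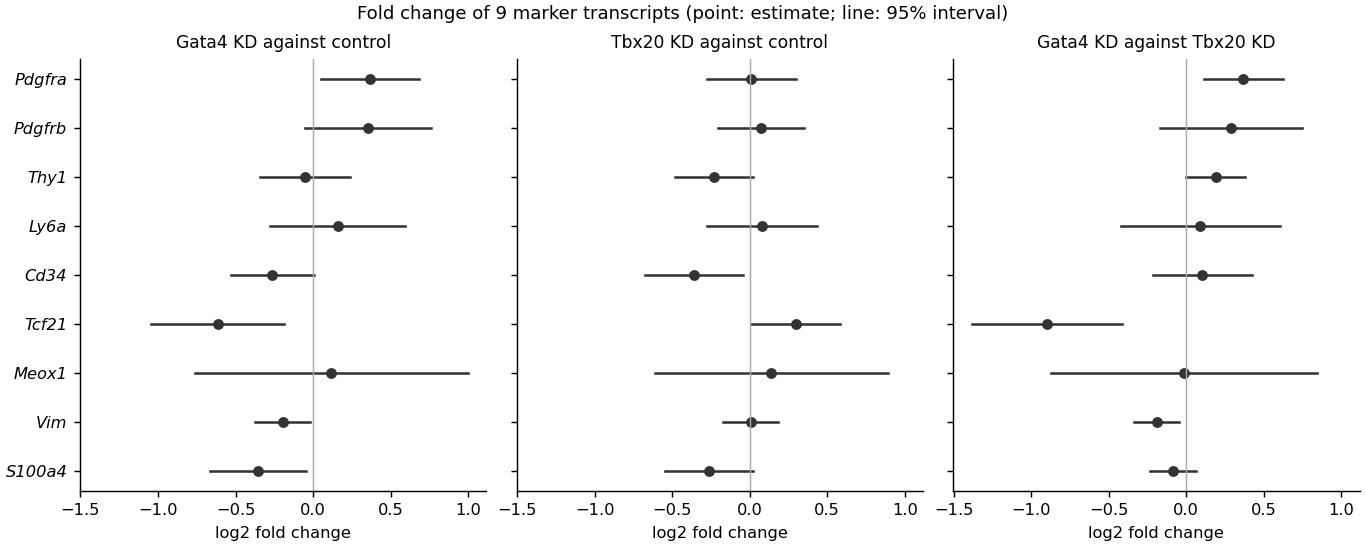
Log2 fold change of the 9 markers tested (horizontal axis) in the 3 comparisons, with the estimate as a point and its 95% interval as a line. Tcf21 lies to the left of 0 in both panels that contain the Gata4 knockdown, at -0.61 and -0.90, and the intervals that leave out 0 number 4, 2 and 4 in the panels.

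Tcf21 (ENSMUSG00000045680, chr10:22817281-22820174, minus strand, GRCm38) encodes a basic helix-loop-helix factor required in the embryo for cardiac fibroblasts to form. It stood at 179.5, 200.2 and 168 CPM in control libraries a, b and c, at 114, 88.1 and 156 CPM in Gata4 KD, and at 184, 250.4 and 234 CPM in Tbx20 KD. Every Gata4 KD library lay below every library of both other groups, and library c came closest. Tbx20 KD overlapped with control, its library a lying between control libraries a and b. Against control the log2 fold change was -0.61 ± 0.19 (SE; 95% interval -1.04 to -0.18; adjusted p = 0.337) in Gata4 KD and 0.30 ± 0.12 (0.01 to 0.58; adjusted p = 0.9997) in Tbx20 KD. Between the knockdowns it was -0.90 ± 0.21 (-1.38 to -0.42; adjusted p = 0.0932), a level in Gata4 KD of 0.536 times that in Tbx20 KD. This last difference passed the threshold in 4 of 14 alternatives. The adjusted p was 0.000146 in DESeq2, which called 743 of 14169 genes in all. It was 0.0107 without Gata4 KD library c, where the log2 fold change was -1.15 and 801 of 14656 genes were called.

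Markers of epicardium, the layer from which many cardiac fibroblasts descend and which also expresses Tcf21, were read in the same libraries. Summed over the 7 markers in the table, they reached 26.6 to 50.1 CPM in control, 9.68 to 17.3 CPM in Gata4 KD and 27.9 to 44.8 CPM in Tbx20 KD. Of the 6 that were tested, 1 fell in Gata4 KD against control, beside 0.38% of all genes called, and the list's median log2 fold change was -1.33, with 2 markers higher (Krt19 at 0.35 and Wt1 at 0.13) and 4 lower. This was Lrrn4, a mesothelial membrane protein, which went from 24.8 ± 8.48 to 2.38 ± 0.329 CPM (adjusted p = 0.00272). Without Lrrn4 the other 6 markers summed to 14.2 CPM on average in control, 11.99 CPM in Gata4 KD and 9.78 CPM in Tbx20 KD. Krt19 made up much of these sums, with 6.70 CPM in control, 8.55 CPM in Gata4 KD and 3.76 CPM in Tbx20 KD. Besides Lrrn4, the markers lower in Gata4 KD than in control were Upk3b (log2 fold change -1.51; adjusted p = 0.247), Upk1b (-1.16; adjusted p = 0.201) and Gpm6a (-1.84; adjusted p = 0.139). Gpm6a passed only against Tbx20 KD, with a log2 fold change of -1.90 (adjusted p = 0.0225). No marker of this list was at 0 in all libraries of a group, while Wt1, the defining epicardial factor, averaged 0.830 CPM over 9 libraries. Fewer cells of a type and less RNA per cell cannot be told apart in bulk samples, and the part of such cells in the Tcf21 levels was not tested.

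The window from 250 bases before to 50 after the RefSeq start was searched on both strands for 4 forms of the sequence that GATA factors bind (the form AGATAA, the form AGATAG, and both with T in place of the first A), and for the T-box sequence AGGTGTGA. RefSeq promoters were at hand for 6 of the 10 markers. A GATA form was found in Tcf21 and Cd34, and in 29.8% of 32851 promoters of the same length, so its presence in 2 of 6 is near the background. In Tcf21 it lies 31 bases before the RefSeq start, at the first bases of the longest gene model of GENCODE. The 30 bases of chr10:22820157-22820186 (minus strand, GRCm38.p6) are shown with the form in capitals.
Tcf21 promoter: tctctattccccAGATAAattcttagtgtc
Cd34 holds AGATAG on its opposite strand, at position -226 from its start. The T-box sequence was in 0 of the 6 and in 1.27% of all promoters. These are matches of letters, and no binding was measured here.

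Among the receptors, Pdgfra (ENSMUSG00000029231, chr5:75152292-75198215, plus strand) encodes the PDGF receptor alpha, the usual surface marker of cardiac fibroblasts in tissue. Its level was 441, 524 and 384 CPM in control, 563, 512 and 668 CPM in Gata4 KD, and 405, 462 and 484 CPM in Tbx20 KD. Gata4 KD libraries were the highest apart from control b, which lay above Gata4 KD b, so that Gata4 KD overlapped with control and not with Tbx20 KD. The log2 fold change was 0.37 ± 0.14 in Gata4 KD against control (0.05 to 0.68; adjusted p = 0.485), 0.01 ± 0.13 in Tbx20 KD (-0.27 to 0.30; adjusted p = 0.9997), and 0.37 ± 0.11 between the knockdowns (0.11 to 0.62; adjusted p = 0.159). The last difference passed in DESeq2 (adjusted p = 0.0322) and in the exact test (0.0493).

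Pdgfrb (ENSMUSG00000024620, chromosome 18), the PDGF receptor beta shared by fibroblasts and pericytes, was measured at 315, 304 and 270 CPM in control, 357, 288 and 491 CPM in Gata4 KD, and 255, 341 and 333 CPM in Tbx20 KD. Gata4 KD c alone stood far above the rest, and Gata4 KD b fell within the control range. Against control the log2 fold change was 0.35 ± 0.18 in Gata4 KD (-0.05 to 0.76; adjusted p = 0.665), and without library c it was 0.15. In Tbx20 KD it was 0.07 ± 0.12 (-0.20 to 0.35).

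The ligands and the receptor-like gene Pdgfrl were read with them. All 5 were tested and 0 passed in any comparison. Against control, 1 was higher and 4 lower in Gata4 KD with a median log2 fold change of -0.17, and 4 were higher and 1 lower in Tbx20 KD with a median of 0.05. The ligands with the highest levels were Pdgfd, at 5.76 CPM per kilobase on average over 9 libraries, and Pdgfa, at 4.92 CPM per kilobase. Pdgfd had a log2 fold change of -0.32 in Gata4 KD (adjusted p = 0.712) and Pdgfa of -0.30 (adjusted p = 0.498).

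Thy1 (ENSMUSG00000032011, chr9:44043384-44048579, plus strand), whose product CD90 was the positive gate of the sort, was measured at 111, 81.5 and 91.5 CPM in control, 100.5, 82.5 and 90.7 CPM in Gata4 KD, and 81.1, 74.9 and 84.0 CPM in Tbx20 KD. The ranges of control and Gata4 KD lay on top of each other, and Tbx20 KD libraries sat at the low end of both. Log2 fold changes were -0.05 ± 0.13 in Gata4 KD (-0.34 to 0.23; adjusted p = 0.940) and -0.23 ± 0.11 in Tbx20 KD (-0.48 to 0.02; adjusted p = 0.9997). Between the knockdowns the value was 0.19 ± 0.08 (0.00 to 0.38; adjusted p = 0.297). The sort took place before transfection and was the same for all groups.

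Genes whose levels followed Thy1 most closely over the 9 libraries, among 10517 genes with a mean of at least 5 CPM, were Snhg6 (Pearson r of log2 CPM = 0.936), Aldh1a3 (0.920) and Zfand2b (0.908). Snhg6 is a host of small nucleolar RNAs, and Aldh1a3 makes retinoic acid. Only 4 genes had an r over 0.9, and the 9 points share libraries, depth and group.

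The negative gates were read at the same time. Ptprc (CD45) had 59 to 106 counts per library, or 1.62 to 3.13 CPM, and Pecam1 (CD31) 3.07 to 9.22 CPM. Per kilobase they averaged 0.130 and 1.09 CPM, beside 29.6 for Thy1. The 14 leukocyte markers summed to 50.6 to 57.2 CPM in control, 28.6 to 51.9 CPM in Gata4 KD and 47.1 to 72.0 CPM in Tbx20 KD, of which the macrophage enzyme Lyz2 gave 18.5 CPM on average, and the T cell genes Cd3e and Cd3g were at 0 in every library. The 10 endothelial markers summed to 46.4 to 65.8 CPM in control, 46.7 to 66.3 CPM in Gata4 KD and 50.1 to 63.1 CPM in Tbx20 KD. Of these lists 10 leukocyte and 10 endothelial markers were tested, and 0 were called against control. Between the knockdowns 1 of the endothelial markers was called, beside 1.44% of all genes. This was Kdr, the main VEGF receptor, with a log2 fold change of 0.90 in Gata4 KD against Tbx20 KD (adjusted p = 0.0258). In that comparison 9 of the 10 leukocyte markers were lower in Gata4 KD, with a median log2 fold change of -0.46, and 0 passed the test. Pericyte and smooth muscle markers (11 genes, 89.1 to 109.9 CPM) and glial markers (7 genes, 23.1 to 29.4 CPM) had overlapping sums in the 3 groups. The 10 cardiomyocyte markers summed to 24.7 to 31.6 CPM in control, 9.03 to 10.0 CPM in Gata4 KD and 22.1 to 27.4 CPM in Tbx20 KD. Nearly all of this was Tnnt2, a troponin, which fell by 1.64 in Gata4 KD (adjusted p = 0.00272), while Nppa and Pln were at 0 in all libraries and Myh6 averaged 0.00652 CPM.

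Ly6a (ENSMUSG00000075602, chr15:74994877-74998031, minus strand) encodes SCA-1, a membrane-anchored antigen of mouse progenitor cells. It was counted at 391, 389 and 317 CPM in control, 352, 328 and 547 CPM in Gata4 KD, and 296, 446 and 409 CPM in Tbx20 KD. Ranges overlapped in all comparisons, and Gata4 KD c was again the highest of the 9. Its log2 fold change against control was 0.16 ± 0.19 in Gata4 KD (-0.28 to 0.60), turning to -0.08 without library c, and 0.08 ± 0.15 in Tbx20 KD (-0.28 to 0.43). Of the 10 Ly6 genes listed, Ly6a included, 5 were tested and 0 were called. Ly6e, at 302 CPM per kilobase beside 320 for Ly6a, had log2 fold changes of -0.05 and 0.22 in the 2 knockdowns, and Ly6i, at 57.4 CPM per kilobase, of -0.03 and -0.02.

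Cd34 (ENSMUSG00000016494, chr1:194938819-194961279, plus strand) encodes a sialomucin of progenitor and endothelial cells. It was the only surface marker to stand at a low level in all groups, with 27.1, 26.4 and 22.3 CPM in control, 18.8, 20.998 and 23.3 CPM in Gata4 KD, and 16.9, 18.4 and 23.5 CPM in Tbx20 KD. Replicate c of either knockdown lay above control c, the lowest control, and the other knockdown libraries lay below all controls. The log2 fold change was -0.26 ± 0.12 in Gata4 KD (-0.53 to 0.00; adjusted p = 0.594) and -0.36 ± 0.14 in Tbx20 KD (-0.67 to -0.05; adjusted p = 0.9997), with 0.10 ± 0.14 between them.

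Pi16 (ENSMUSG00000024011, chr17:29317680-29330593, plus strand), a secreted peptidase inhibitor domain protein of adventitial fibroblasts, was barely detected. The counts were 10, 6 and 4 in control, 2, 2 and 4 in Gata4 KD, and 5, 5 and 5 in Tbx20 KD. At 2 to 10 counts in libraries of 31214828 counts or more, no difference could be resolved, and without a filter the adjusted p was 0.804 and 0.996 against control.

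Other genes of adventitial and progenitor-like fibroblasts ranged widely. Dpp4 averaged 0.0296 and Scara5 0.118 CPM per kilobase, whereas Anxa3 averaged 93.0 CPM per kilobase. Of 9 such genes, leaving out Pi16, Ly6a and Cd34, 8 were tested and 0 were called against control in either knockdown, and 1 was higher in Gata4 KD than in Tbx20 KD, beside 1.44% of all genes. The gene called was Cd55, an inhibitor of complement and itself a marker of these cells, at 54.2 ± 2.81 CPM in control, 80.3 ± 12.0003 CPM in Gata4 KD and 53.0 ± 2.197 CPM in Tbx20 KD (n = 3 each). Its log2 fold change was 0.60 between the knockdowns (adjusted p = 0.0430) and 0.57 against control (adjusted p = 0.111). The median log2 fold change of the 8 against control was 0.18 in Gata4 KD and -0.04 in Tbx20 KD.

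Meox1 (ENSMUSG00000001493, chr11:101877510-101894374, minus strand) encodes a homeobox factor linked to activation of cardiac fibroblasts. It was scarce and the most variable of the markers, at 3.62, 5.68 and 2.4998 CPM in control, 4.09, 2.39 and 6.33 CPM in Gata4 KD, and 2.91, 5.64 and 4.46 CPM in Tbx20 KD. All 3 groups covered nearly the same range. The pooled SD within groups was 0.59 on the log2 scale. Intervals ran from -0.76 to 0.998 in Gata4 KD and from -0.61 to 0.89 in Tbx20 KD, so the direction of any change was not resolved.

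Of 16 mesenchymal transcription factors, Tcf21 and Meox1 included, 15 were tested in Gata4 KD and 16 in Tbx20 KD, and 0 were called. Against control 13 were higher and 2 lower in Gata4 KD with a median log2 fold change of 0.13, and 12 were higher and 4 lower in Tbx20 KD with the same median. The other member that was lower in Gata4 KD was Hand2 (-0.10; adjusted p = 0.861). Prrx1, at 324 CPM, had a log2 fold change of 0.12 in Gata4 KD (adjusted p = 0.877) and Tcf4, at 158 CPM, of 0.26 (adjusted p = 0.789).

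**Figure D3:**
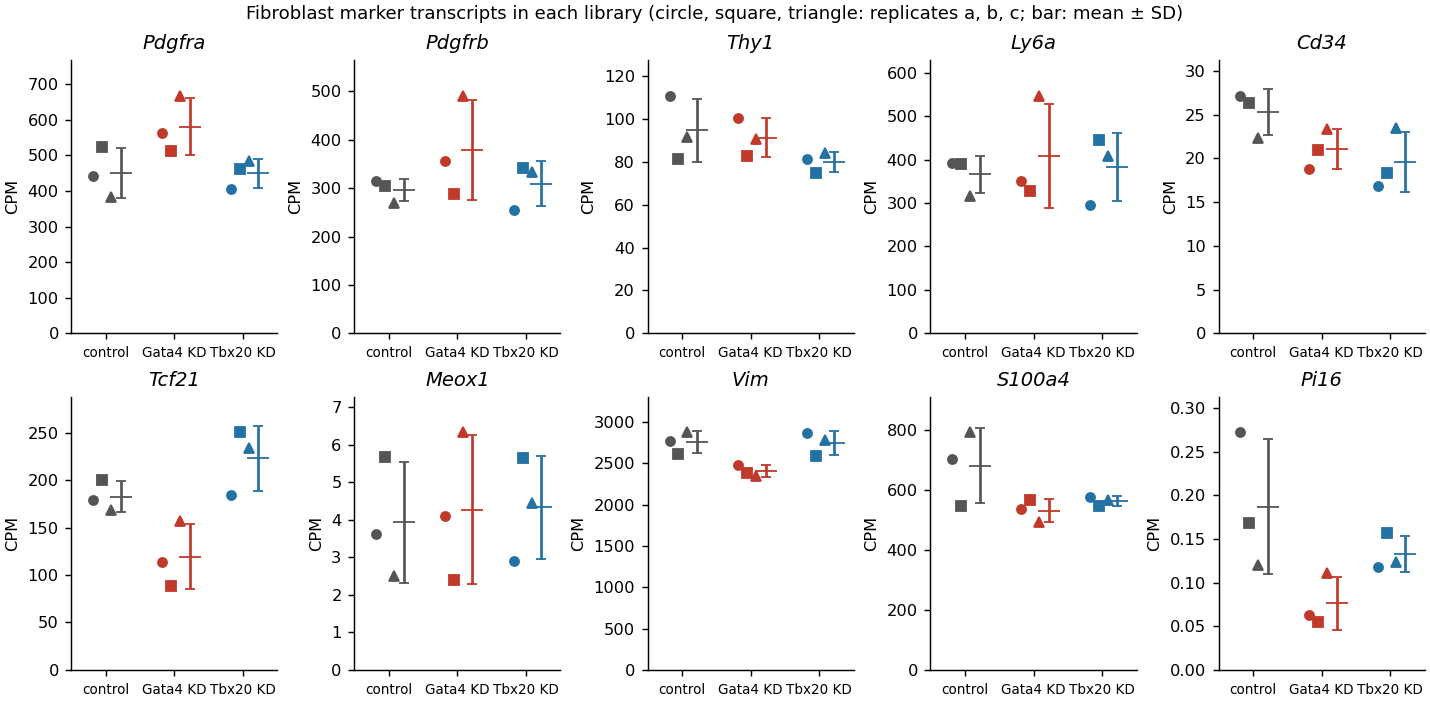
CPM of each marker in the 9 libraries (vertical axes from 0), with circles, squares and triangles for replicates a, b and c and a bar for mean ± SD of each group (n = 3). Tcf21 in Gata4 KD (88.1 to 156 CPM) lies below both other groups, while Thy1 and Meox1 overlap in all 3.

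Vim (ENSMUSG00000026728, chr2:13573927-13582826, plus strand), the intermediate filament of mesenchymal cells, was the steadiest marker. It stood at 2774, 2611 and 2875 CPM in control, 2482, 2386 and 2343 CPM in Gata4 KD, and 2863, 2585 and 2780 CPM in Tbx20 KD. All Gata4 KD libraries lay below all others, by a small margin at the nearest. Against control the log2 fold change was -0.20 ± 0.08 in Gata4 KD (-0.38 to -0.02; adjusted p = 0.530), or 0.873 times the control level, and 0.01 ± 0.08 in Tbx20 KD (-0.17 to 0.19). Between the knockdowns it was -0.19 ± 0.06 (adjusted p = 0.189), and DESeq2 alone put it past the threshold (0.0390). Of 12 genes for intermediate filaments and lamins, Vim included, 9 were tested and 0 called in any comparison, with a median log2 fold change of -0.14 in Gata4 KD and -0.04 in Tbx20 KD. Lmna, a lamin of the nuclear envelope at 395 CPM, had a log2 fold change of -0.14 in Gata4 KD, and Nes, at 156 CPM, of 0.05.

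S100a4 (ENSMUSG00000001020, chr3:90603771-90606045, plus strand), also called FSP1, encodes a small calcium-binding protein of fibroblasts and of several leukocytes. Control libraries held 702, 545 and 791 CPM, Gata4 KD libraries 534, 566 and 491 CPM, and Tbx20 KD libraries 577, 545 and 567 CPM. Control a and c were the highest of the 9, and control b lay among the knockdown libraries, so that the spread was in the control group, with a CV of 18.3% beside 7.07% and 2.91%. The log2 fold change was -0.36 ± 0.14 in Gata4 KD (-0.67 to -0.05; adjusted p = 0.491) and -0.26 ± 0.12 in Tbx20 KD (-0.54 to 0.02; adjusted p = 0.9997). When a library was left out, the value in Gata4 KD ran from -0.49 without control b (adjusted p = 0.0514) to -0.23 without control c (adjusted p = 0.843). Without control b the test called 189 genes in all, in place of 55.

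Of 11 other S100 genes listed from the same cluster on chromosome 3, 7 were tested and 0 called. Against control 7 of these 7 were lower in Gata4 KD, with a median log2 fold change of -0.25 beside -0.02 for all genes, and 6 of 7 in Tbx20 KD, with a median of -0.20 beside 0.00. The most negative in Gata4 KD was S100a10, which binds annexin A2, at -0.65 ± 0.17 (adjusted p = 0.229). S100a11, at 1184 CPM per kilobase, stood at -0.23 ± 0.10 (adjusted p = 0.575), and S100a6, at 907 CPM per kilobase, at -0.09 ± 0.15 (adjusted p = 0.912). Both comparisons use the same control libraries.

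**Figure D4:**
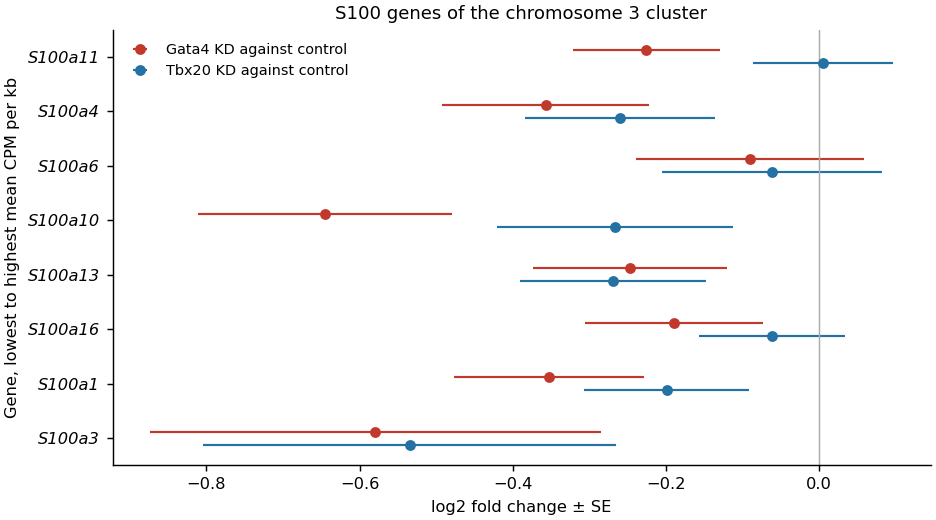
Log2 fold change against control with its SE (horizontal axis) of the 8 tested S100 genes of chromosome 3, S100a4 included, in Gata4 KD (red) and Tbx20 KD (blue), from the lowest mean CPM per kilobase at the bottom to the highest at the top. All 8 red points lie left of 0 and S100a11 is the blue point right of it, and none passed the threshold.

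Common fibroblast products were examined to place the markers in the state of the cells. Of 16 matrix and surface genes, such as Col1a1 (3690.2 CPM), Col1a2 (3654 CPM) and Fbln2 (2928 CPM), 16 were tested and 0 called in any comparison. Their median log2 fold change was 0.02 in Gata4 KD and 0.05 in Tbx20 KD. Col1a1, a chain of type I collagen, had a log2 fold change of -0.35 in Gata4 KD (adjusted p = 0.423) and Fbln2, an elastic fibre protein, of -0.02. Of 12 genes of activated fibroblasts, 11 were tested and 0 called against control. Of the 11, 8 were higher and 3 lower in Gata4 KD with a median log2 fold change of 0.11. The 3 lower were Cthrc1 (-0.64), Postn (-0.35) and Lox (-0.13). In Tbx20 KD 2 were higher and 9 lower with a median of -0.07. Between the knockdowns 1 of the 11 was called, beside 1.44% of all genes. It was Tnc, the matrix glycoprotein tenascin C, at 1996 ± 209 CPM in control, 3066 ± 341 CPM in Gata4 KD and 1672 ± 234 CPM in Tbx20 KD (log2 fold change 0.87 between the knockdowns, adjusted p = 0.0242, and 0.62 in Gata4 KD against control, adjusted p = 0.0888). Acta2, the smooth muscle actin of myofibroblasts, averaged 1076 CPM and had a log2 fold change of 0.11 in Gata4 KD (adjusted p = 0.848). Set against Tbx20 KD, 7 of the 11 were higher and 4 lower in Gata4 KD, with a median of 0.22. Among the higher, Cnn1 (0.90; adjusted p = 0.0524) and Tagln (0.45; adjusted p = 0.0650) did not pass. The 4 lower, which did not pass either, were Cthrc1 (-0.54), Postn (-0.31), Ltbp2 (-0.18) and Lox (-0.08).

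The markers differed widely in how much replicates varied. The pooled SD within groups on the log2 scale was 0.06 for Vim, below the median of 0.12 over 10518 genes, and 0.16 for Thy1, 0.17 for S100a4, 0.19 for Pdgfra and for Cd34, 0.27 for Pdgfrb, 0.28 for Tcf21, 0.31 for Ly6a and 0.59 for Meox1. Among these genes, all with a mean of at least 5 CPM, the SD of Tcf21 was above that of 94.3%, that of Ly6a above 95.7% and that of Meox1 above 99.4%. Meox1, at a mean of 4.18 CPM, lies below that cutoff and is not one of them. Gata4 KD c was the highest of the 9 libraries for 4 markers (Pdgfra, Pdgfrb, Ly6a and Meox1) and the lowest for Vim and S100a4.

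Pdgfra, Pdgfrb, Ly6a, Tcf21 and Meox1 are 5 markers that were picked, after their values were seen, because they deviated together. In 7 of the 9 libraries all 5 lay on the same side of their group's mean, above it in control b, Gata4 KD c, Tbx20 KD b and Tbx20 KD c and below it in control c, Gata4 KD b and Tbx20 KD a. Tbx20 itself lay on that side in each of the 7, at 1275 CPM in control b and 720 CPM in control c, for example, and at 908 CPM in Gata4 KD c and 513 CPM in Gata4 KD b. Gata4 did the same in the knockdown groups but went the other way in control, at 155 CPM in control b and 167 CPM in control c. Because the markers were picked for this agreement, its count is a description only. The share of all genes with such agreement was not computed. The labels name no batch, dish or animal to which these libraries could be assigned.

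**Figure D5:**
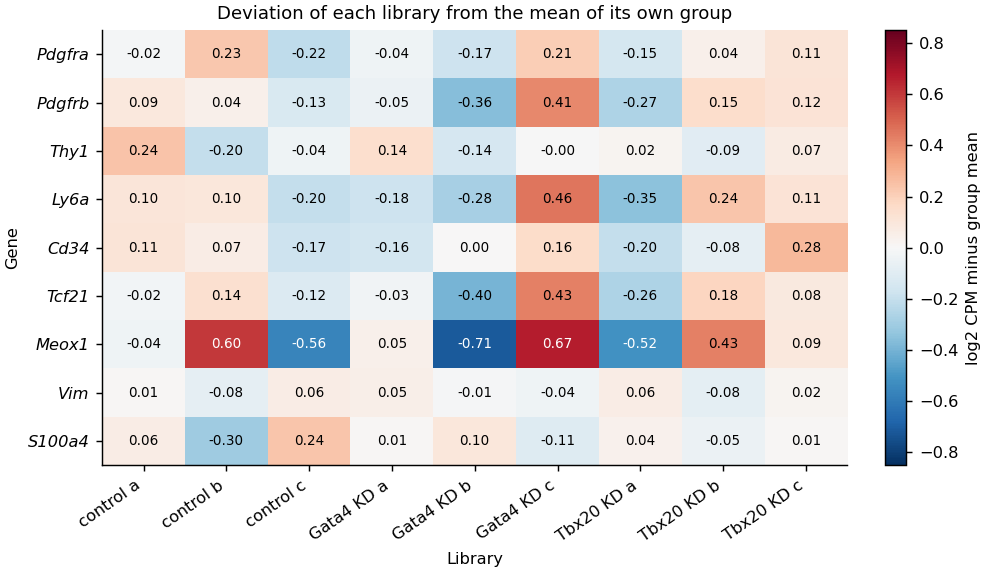
Log2 CPM of the 9 tested markers in each library minus the mean of that library's own group, in colour and as numbers. Gata4 KD c stands above its group for Pdgfra, Pdgfrb, Ly6a, Tcf21 and Meox1, Gata4 KD b and Tbx20 KD a stand below theirs, and Vim stays close to 0 throughout.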

How the data were processed

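Poly-A RNA of 9 libraries was read as 75-base single-end reads. After quality trimming, the authors used RSEM with Bowtie2 on GRCm38, with strand taken into account, to estimate gene abundances, whereas the submitters' processing notes list mm9, Bowtie and RSEM. The deposited table holds expected counts per gene, as whole numbers that are not normalized, in 9 columns matched to the labels. RSEM divides reads that fit several genes among them.

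Groups were taken from the guide RNA in the labels. For a comparison, all genes kept by filterByExpr were fitted in the 6 libraries concerned (R 4.3.3, edgeR 4.0.16) with TMM factors and without covariates. The quasi-likelihood F test was adjusted after Benjamini and Hochberg over all of these genes, with 0.05 as the threshold. Intervals are 95% intervals of the same fit. CPM was computed from the deposited counts with TMM factors over all 9 libraries. Log2 CPM for spread and likeness used a prior count of 2 and genes with a mean of at least 5 CPM. Symbols, positions and lengths came from GENCODE M21 on GRCm38, which named 37607 of 38924 gene IDs, and promoters from RefSeq on GRCm38.p6. Guide sequences came from the study's own list and were matched to the GENCODE transcripts.

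The members and lists were chosen with earlier results of these data known. Named were all 10 markers, Gata4 and Tbx20; in each list the genes past the threshold in any comparison and otherwise up to 3 with the highest mean CPM; and for Thy1 the 3 genes with the highest Pearson r. The genes listed at low levels (Dpp4, Scara5, Wt1, Myh6), Krt19, Upk3b, Upk1b, Acta2, Cnn1, Tagln, Hand2 and the gate genes were named for the reasons given beside them. Cthrc1, Postn, Ltbp2 and Lox were named because they went the other way from the rest of their list. S100a10 was named for its value, the most negative of the S100 genes tested in Gata4 KD against control.

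Alternatives were DESeq2 1.42.0, library size alone, no filter, at least 10 counts in every library, an exact test with tagwise dispersion, limma-voom (limma 3.58.1), a joint fit of all 9 libraries, a block for the replicate letter and leaving out each library in turn, and for order the length of the longest transcript. The procedure was tested on data simulated for Gata4 KD against control only, without the joint fit, and not for the other comparisons.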

Additional observations from a re-analysis of the deposited data

Results flagged for a closer look

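Tcf21 differed between the knockdowns by a log2 fold change of -0.90 (Gata4 KD over Tbx20 KD, with an adjusted p of 0.0932 by edgeR). It was picked out because every Gata4 KD library lay below the control mean of 183 CPM and every Tbx20 KD library above it, so that the 2 effects against the same control had opposite signs. The direct comparison, which is the test of this difference, did not pass the threshold.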

How the results depend on the processing

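Each comparison was refitted under 14 alternatives, 8 of other processing and 6 that leave out a library. No marker was called against control under any of them in either knockdown. Between the knockdowns DESeq2 called 3 markers, Tcf21 (adjusted p = 0.000146), Pdgfra (0.0322) and Vim (0.0390). The exact test called 2, Tcf21 (0.00143) and Pdgfra (0.0493), and no filter called 1, Tcf21 (0.0341). Leaving out a library gave 0 to 1 marker called, the 1 being Tcf21 without Gata4 KD c (0.0107). The log2 fold change of Tcf21 stayed between -1.15 and -0.72 over all 14. Of all genes tested, DESeq2 called 743 of 14169 and the exact test 729 of 14477. No filter called 324 of 22442, and the fit without Gata4 KD c called 801 of 14656.

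The count of all genes called depended strongly on the method. In Gata4 KD against control the 55 calls became 264 in DESeq2, 121 without a filter, 250 in the exact test, 148 with all 9 libraries in one fit and 6 to 189 when a library was left out, the extremes without control a and without control b. In Tbx20 KD against control the 1 call became 12, 2 and 8 in DESeq2, without a filter and in the exact test, and 1 to 5 without a library. Between the knockdowns 208 became 743, 324 and 729, and 22 (without Gata4 KD a) to 801 (without Gata4 KD c). Scaling by library size alone gave 90 higher and 112 lower between the knockdowns, in place of 118 and 90.

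Libraries with the same letter had correlations of their deviations from the group means of -0.17 to 0.25, and libraries with different letters of -0.39 to 0.35. The ranges overlap, so no pairing by letter was seen. With 3 libraries a group, this check cannot tell whether a letter stands for a shared animal or culture. With the replicate letter as a block, 5, 2 and 101 genes were called in the 3 comparisons and 0 markers in each.

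Small fold changes turned sign when a library was left out. In Gata4 KD against control these were Thy1 (-0.149 to 0.0772), Ly6a (-0.0823 to 0.297) and Meox1 (-0.26 to 0.48). In Tbx20 KD against control they were Vim (-0.0262 to 0.0443, and -0.00542 with all 9 libraries in one fit), Pdgfra (-0.0861 to 0.144), Pdgfrb (-0.00341 to 0.195), Ly6a (-0.0449 to 0.235) and Meox1 (-0.0942 to 0.508). Between the knockdowns they were Ly6a (-0.18 to 0.23) and Meox1 (-0.42 to 0.28). The causes were not tested. With 3 libraries a group, the printed intervals give the range of each estimate and are not a limit of detection. Tbx20 in its own knockdown, at a log2 fold change of -1.35, did not pass the threshold. Pi16 was too shallow for any test.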
